A study of Rattus norvegicus with 10 samples.

Results

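Pdcd10, also called Ccm3, was followed across 10 arrays of rat synovium, the tissue that lines the joint. It is 1 of 62 linear-transcript probes with a transcript accession, of which 39 match a gene symbol, on an array built for 14145 circular RNA (circRNA) probes. The probe, A_43_P19174, is paired in the files with the rat Pdcd10 transcript NM_001009542 and is printed at 10 spots per array. It was chosen by its level in arthritic against normal tissue on these same arrays. That difference, and every level below, is therefore given as a description, with no test.

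The normal group held 5 samples of synovium from male rats labelled normal, and the CIA group 5 samples from male rats with collagen-induced arthritis, a model made by immunising rats with collagen until their joints become inflamed. All rats were aged 7 to 8 weeks and all samples carry the label of day 21. The labels give no strain, immunisation scheme or arthritis score, and do not say whether each number is a separate animal, so the spread between samples may be technical. Total RNA was digested with RNase R, an exonuclease that removes linear RNA and spares circles, labelled with Cy3 and hybridised to 1 array per sample.

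The Pdcd10 protein is a small adaptor. It forms the cerebral cavernous malformation (CCM) complex with Krit1 and Ccm2, and separately holds the kinases Stk24, Stk25 and Stk26 in the STRIPAK phosphatase complex. Loss of any of the CCM genes in the vessel lining lets signalling through Map3k3 to the transcription factors Klf2 and Klf4 run unchecked, and vessels become dilated and leaky. The gene is expressed widely and is no marker of endothelium. In arthritis the synovium grows new vessels that leak and admit leukocytes.

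A feature of the scanning comes before any group comparison. The file headers give 2 scan runs. Scan run 1 held all 5 CIA arrays and normal replicate 1, and scan run 2 held normal replicates 2 to 5. Only normal replicate 1 was therefore scanned together with CIA arrays, and for the other 9 arrays the group and the scan run cannot be told apart. The reference for every level below, each array's 75th percentile over circRNA probes, was 263 to 381 units on the 6 arrays of run 1 and 133 to 198 units on the 4 arrays of run 2. Of the circRNA probes, 93.4% to 99.8% in run 1 and 88.2% to 98.4% in run 2 were well above background. With 10 arrays, precision is limited throughout.

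Levels are the mean log2 processed signal over the spots of the probe, minus the log2 75th percentile of the circRNA probes of the same array. Pdcd10 stood at 2.76 on normal replicate 1, 0.18 on normal replicate 2, 0.27 on normal replicate 3, 0.07 on normal replicate 4 and 0.65 on normal replicate 5. On CIA replicates 1 to 5 it stood at 3.02, 1.70, 1.57, 2.08 and 2.45. The groups overlapped, because normal replicate 1 was higher than 4 of the 5 CIA arrays. The scan runs did not overlap: all 6 arrays of run 1 lay above all 4 arrays of run 2. Only normal replicate 1 makes this split differ from the split by group.

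**Figure D1:**
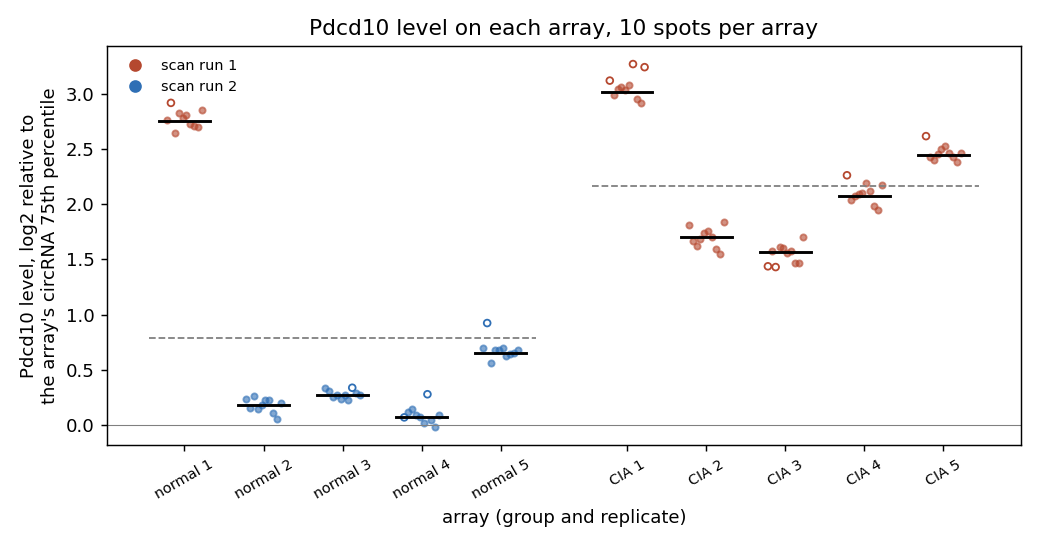
Pdcd10 level on each of the 10 arrays, in log2 units relative to the circRNA 75th percentile of the array. Small points are the 10 spots (open where marked as outliers and left out), black bars the array's mean over used spots, dashed lines the group means of 0.79 and 2.16, and colours the scan runs; normal replicate 1 sits at 2.76, among the CIA arrays, while normal replicates 2 to 5 sit between 0.07 and 0.65.

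On the unscaled intensity the same arrays stood apart. The mean processed signal was 2135 units on normal replicate 1 and 212, 161, 168 and 312 units on normal replicates 2 to 5. On CIA replicates 1 to 5 it was 2656, 853, 1132, 1521 and 2035 units. Normal replicate 1 was thus brighter than all CIA arrays except replicate 1, and the dimmest array of run 1 was brighter than the brightest of run 2. The local background around the Pdcd10 spots was 12 to 13 units on all 10 arrays, far under these signals.

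The differences between arrays were larger than the spread between spots of the same array. All 100 Pdcd10 spots were well above background and 0 were saturated. Feature Extraction marked 12 of them as outliers, and keeping those moved no array's level by more than 0.059 on the log2 scale. The SD over the spots of an array was 0.033 to 0.092 (median 0.063). When the arrays were put in order of level, each of the 9 steps to the next array was larger than the spot SD of both neighbours. The steps ranged from 0.09, between normal replicates 2 and 3, to 0.92, between normal replicate 5 and CIA replicate 3. The step of 0.92, or 1.89-fold, is the one that separates scan run 2 from scan run 1; the next largest was 0.38. Spot spread covers only the printing and reading of 1 hybridisation, so these steps say nothing about the spread between animals.

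Each spot gave nearly the same contrast when taken alone. Over the 10 spots, which share 1 hybridisation per array and are not replicates of a condition, the CIA minus normal difference was 1.26 to 1.47. The difference between scan run 1 and scan run 2 was 1.90 to 2.07 over the same spots. The spots all lie in different rows of the array, so neither difference rested on 1 place on it.

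The comparison of arthritic with normal synovium, the question of the study, gave a higher mean for Pdcd10 in CIA. The mean log2 level was 0.79 ± 1.13 in the normal group (SD, n = 5) and 2.16 ± 0.59 in the CIA group (SD, n = 5). The log2 difference was 1.38 (SE 0.50, limma), or 2.6-fold. The pooled SD within groups was 0.90. In bulk tissue a change in the number of cells that hold a transcript and a change of RNA per cell cannot be told apart, and here RNA that withstood RNase R is what was read.

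Across the 60 linear-transcript probes that were kept, limma called 0 at a Benjamini-Hochberg adjusted p under 0.05 (0%). These counts are the background for both kinds of probe, and nothing is read from them for Pdcd10. At an unadjusted p under 0.05 the count was 21 (35%), and of the 13891 circRNA probes kept it was 4500 (32.4%). When linear probes were fitted and adjusted alone, limma called 2 of them. The median log2 difference was 0.12 over the linear probes and 0.19 over the circRNA probes. A higher difference than that of Pdcd10 was found on 4 linear probes (6.67%) and 631 circRNA probes (4.54%). In either direction, 10 other linear probes and 1314 circRNA probes had a difference at least as large in size. All CIA arrays lay above all normal arrays on 1 linear probe (1.67%) and 211 circRNA probes (1.52%), and Pdcd10 was not the linear one.

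Set by scan run, the same levels fell into 2 ranges without overlap. The mean was 2.26 ± 0.58 in run 1 (SD, n = 6) and 0.29 ± 0.26 in run 2 (SD, n = 4), a difference of 1.97, or 3.92-fold. On 5 linear probes (8.33%), Pdcd10 among them, and on 1963 circRNA probes (14.1%) every run 1 array lay above every run 2 array. Run 1 minus run 2 had a median of -0.07 over the linear probes and 0.21 over the circRNA probes. It was higher than for Pdcd10 on 3 linear probes (5%) and 346 circRNA probes (2.49%). In either direction it was at least as large in size on 9 other linear probes and 865 circRNA probes.

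Within the arrays labelled normal alone, normal replicate 1 exceeded the mean of normal replicates 2 to 5 by 2.47 on the log2 scale, or 5.53-fold. The CIA mean exceeded the mean of the same 4 normal arrays by 1.87, or 3.66-fold. These differences share the 4 normal arrays of run 2. The excess of normal replicate 1 was thus wider than that of the CIA mean, but it rests on 1 array. CIA replicate 1, at 3.02, lay above normal replicate 1. Why normal replicate 1 lay among the CIA arrays was not tested. Over the linear probes the median of normal replicate 1 minus normal replicates 2 to 5 was -0.23. A higher value than that of Pdcd10 was found on 2 linear probes (3.33%) and 219 circRNA probes (1.58%). In either direction, 7 other linear probes and 644 circRNA probes had a value at least as large in size.

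Within scan run 1, which held both groups, the CIA mean of Pdcd10 lay below its level on normal replicate 1, by little more than the standard error. With scan run as a block in limma the log2 difference was -0.60 (SE 0.52), and within run 1 alone it was the same -0.60 (SE 0.57), since both are the CIA mean minus normal replicate 1. Only 1 normal array enters this value, and the SE assumes that it varies like the others. The median with the block was 0.08 over the linear probes and 0.04 over the circRNA probes. The level on normal replicate 1 was closer to the CIA mean than to that of the run 2 arrays on 46 of the 60 linear probes (76.7%) and on 10683 of the 13891 circRNA probes (76.9%), as it was on Pdcd10. The arrays of run 1 had both a higher 75th percentile and a higher Pdcd10 level than those of run 2. Inside run 1 the level was 1.57 on the array with the highest 75th percentile, CIA replicate 3 (381 units). It was 1.70 on the array with the lowest, CIA replicate 2 (263 units). Between them lay normal replicate 1 (2.76 at 315 units) and CIA replicates 1 (3.02 at 328 units), 4 (2.08 at 359 units) and 5 (2.45 at 372 units). The 75th percentile is subtracted to give the level, so these measures are not independent. The part of scan run and brightness in the Pdcd10 difference was not tested.

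Leaving out normal replicate 1 raised the Pdcd10 difference to 1.87 (SE 0.32). Limma then called 25 of the 60 linear probes (41.7%) and 4981 circRNA probes (35.9%). In that set all normal arrays are from run 2 and all CIA arrays from run 1, so the group and the scan run cannot be told apart.

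**Figure D2:**
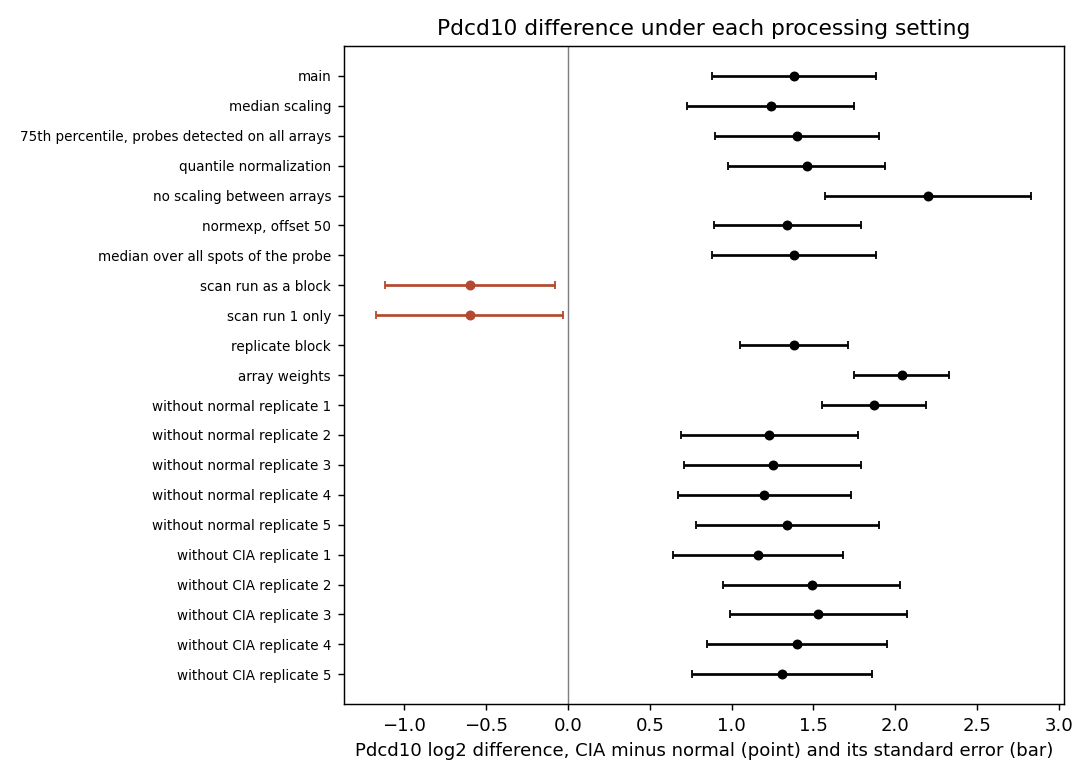
Pdcd10 log2 difference, CIA minus normal, under each processing setting, with its standard error as a bar. The values lie between 1.16 and 2.20 except those taken within scan run (red), which are -0.60.

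Normal replicate 5 is the highest of the run 2 arrays for Pdcd10, at 0.65 against 0.07 to 0.27 on normal replicates 2 to 4. On it 98.4% of circRNA probes were well above background, against 88.2% to 90.5% on those 3 arrays. Within the CIA group Pdcd10 spread over 1.57 to 3.02. CIA replicate 1, the highest, had the fewest circRNA probes well above background in its run, 93.4%. Whether either measure took part in the Pdcd10 level was not tested.

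The position of Pdcd10 among the circRNA probes of its own array does not depend on scaling between arrays. It was above 93.3% of the 14145 circRNA probes on normal replicate 1, and above 76.7%, 77.8%, 75.9% and 82.2% of them on normal replicates 2 to 5. On CIA replicates 1 to 5 it was above 94.3%, 90.3%, 88.1%, 90.9% and 92.9%. The mean percentile was 81.2 ± 7.19 in the normal group (SD, n = 5) and 91.3 ± 2.41 in the CIA group (SD, n = 5). The 4 arrays of run 2 gave 78.2 ± 2.81 (SD, n = 4) and the 6 arrays of run 1 gave 91.6 ± 2.30 (SD, n = 6), again without overlap. Probes differ in affinity, so a percentile describes how bright this probe was, not how abundant the transcript was beside circles. On all 10 arrays the probe was brighter than the 75th percentile of circRNA probes, after RNase R.

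**Figure D3:**
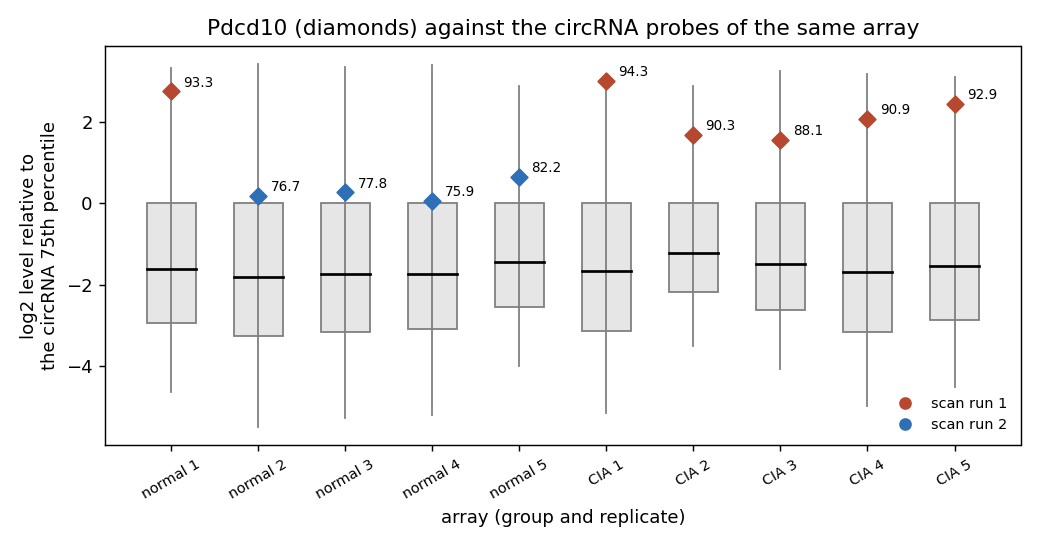
Pdcd10 (diamonds, coloured by scan run, with the percentile printed) against the circRNA probes of the same array (box from the 25th to the 75th percentile with the median, line from the 5th to the 95th), in log2 units relative to the 75th percentile. The diamonds of scan run 2 lie just above the box, at percentiles 75.9 to 82.2, and those of scan run 1 at 88.1 to 94.3.

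The probes whose levels ran most like Pdcd10 over the 10 arrays were ranked by Pearson correlation, as a description over arrays that fall into 2 scan runs. Among the 36 other linear probes with a symbol the median correlation was -0.16, and 1 exceeded 0.9. That probe was Dlg4 (r = 0.91, and 0.87 after each group's mean was subtracted), which encodes a scaffold protein of synapses. Such centring leaves the distance of normal replicate 1 from the other normal arrays in place, so all centred correlations still carry it. Dlg4 stood at 0.22 on normal replicate 1, at -1.63 to -0.98 on the other normal arrays and at -1.07 to 0.57 on the CIA arrays. Sdha, a subunit of succinate dehydrogenase, followed (r = 0.88, and 0.89 after centring), with normal replicate 1 at 0.62, above all CIA arrays (-0.42 to 0.48). Slc28a2, a nucleoside transporter, had r = 0.88 (0.80 after centring), and normal replicate 1 at 0.97 was again above all CIA arrays (0.35 to 0.79). One of the 2 probes of Ldha, lactate dehydrogenase A, had r = 0.87 (0.76 after centring). On that probe normal replicate 1 minus normal replicates 2 to 5 was 0.63, but on the other Ldha probe it was -0.53. The CIA minus normal difference was 0.80 on the first and 0.08 on the other, so the likeness holds for 1 probe and not for the gene. Lhcgr, the luteinising hormone receptor, had r = 0.85 (0.71 after centring). Only 2 of the 5 normal arrays read Lhcgr well above background, so its low values on the others are not measured levels.

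Within the 6 arrays of scan run 1 the likeness to Pdcd10 was uneven. The correlation was 0.91 for Sdha, 0.74 for Dlg4, 0.69 for the same Ldha probe and 0.66 for Slc28a2, but -0.24 for Lhcgr. The correlation of Lhcgr over all 10 arrays rests in part on normal arrays where it was not well above background.

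A pair of circRNA probes followed Pdcd10 more closely over the 10 arrays than any of the 36 other linear probes with a symbol. ASCRPR006560 had r = 0.99 over the 10 arrays, 0.99 after centring and 0.97 in run 1. It stood at 4.73 on normal replicate 1, 0.67 to 1.63 on normal replicates 2 to 5 and 3.05 to 5.17 on the CIA arrays. ASCRPR009997 likewise had r = 0.99, 0.99 after centring and 0.99 in run 1, at 3.21, 0.90 to 1.56 and 2.12 to 3.62 on the same sets. On both, as on Pdcd10, CIA replicate 1 was the highest array and normal replicate 1 the next. They were picked as the highest of 13891 correlations, of which 755 (5.44%) exceeded 0.9, and the files used here do not pair circRNA probes with host genes. Their differences with scan run as a block were -0.73 (SE 0.74) and -0.54 (SE 0.53).

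**Figure D4:**
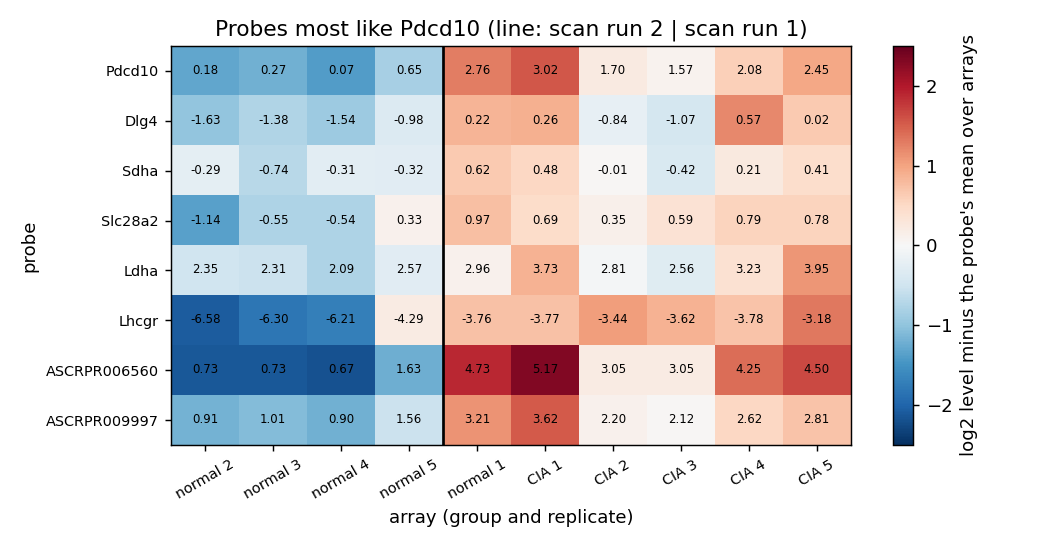
Log2 level (numbers, relative to each array's circRNA 75th percentile) of Pdcd10 and the 7 probes most like it on each array, coloured by the distance from the probe's mean over the 10 arrays. The vertical line separates scan run 2 (left) from scan run 1 (right); normal replicate 1, just right of the line, has values such as 2.76 for Pdcd10 and 4.73 for ASCRPR006560 that lie with the CIA arrays.

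No partner of Pdcd10 could be followed beside it. Of 97 genes in 15 lists, only Pdcd10 itself has a named probe. The 4 vascular lists held the CCM complex, the STRIPAK complex with its kinases, genes downstream of the CCM complex, and VEGF and angiopoietin signalling. The other 11 held markers of endothelium, pericytes, synovial fibroblasts, macrophages, T cells, B cells, neutrophils, erythroid cells, skeletal muscle, adipocytes and chondrocytes. The labelled tissue and its content of vessels therefore could not be checked by marker genes. In the RefSeq gene table of assembly GRCr8 the neighbours of Pdcd10 are Wdr49 and Serpini1, and neither has a named probe. The exon that the probe lies in is not given in the sources used here, so linear Pdcd10 RNA and a circle that shares that exon cannot be told apart.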

How the data were processed

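The intensity values were deposited as scanner output of Agilent Feature Extraction 11.0.1.1 in 1 colour, per the file headers. Per the file headers, that software subtracted the background and corrected trends inside each array, and the arrays were not normalized to each other. Other values used, per the file headers, were the median intensity of spot and local background and spot flags. The deposited value table holds circRNA probes only and was not used here. Limma is named in the submitters' processing notes, with no version given.

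Log2 processed intensities were averaged over the spots of a linear probe that were not marked as outliers, and the 75th percentile over circRNA probes was subtracted. A probe was kept where at least 5 of 10 arrays read it well above background (for linear probes, in at least 50% of spots): 13891 circRNA probes, after 54 with an outlier mark were left out, and 60 linear probes. Groups were compared in 1 limma fit (version 3.58.1, R 4.3.3; lmFit, eBayes) over both kinds of probe, and p-values were adjusted by Benjamini-Hochberg over both. Symbols came from RefSeq (GRCr8) by accession without version. Groups and replicate numbers came from the sample titles, scan runs from the scan times in the headers. Procedures were tested on simulated data. For the fit with no block, the simulated noise was independent between arrays. For the fit with scan run as a block, a shift shared by the run 1 arrays was added in the real layout of runs. That test covers the code and cannot tell group from scan run on the real arrays. Figures were drawn with matplotlib 3.10.9.

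The gene, the lists and the tests were chosen with earlier results of these data known. Probes named beside Pdcd10 are the 5 linear probes with a symbol and the 2 circRNA probes with the highest Pearson correlation with it over the arrays. The comparison by scan run was added after the data were examined. Alternatives were other scalings, normexp with an offset of 50 on the median spot signal, other filters, the median over spots, blocks, array weights and leaving out each array. No pair of arrays agreed closely enough to be 1 library deposited again: the smallest SD of the log2 difference between 2 arrays was 0.51.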

Additional observations from a re-analysis of the deposited data

Results flagged for a closer look

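In the normal group, 1 array stood far from the other 4 for Pdcd10 and for both circRNA probes most like it. Normal replicate 1 was at 2.76 for Pdcd10, and its distance to the next array was 0.78 of the group's whole range, where values above 0.71, Dixon's 95% critical value for 5 samples, were picked out. The same array was at 4.73 for ASCRPR006560 (0.76 of the range) and at 3.21 for ASCRPR009997 (0.71 of the range). The 2 circRNA probes were chosen for their likeness to Pdcd10, so their values follow from that choice, and Pdcd10 itself was chosen by these levels; the 3 values are a description and no test. In all, 18 groups of 5 values were examined. Chance marks about 1 in 20 of independent groups. These groups include probes picked for likeness to Pdcd10 on the same arrays, so that rate is no yardstick here. Normal replicate 1 is the only normal array of scan run 1, and the cause was not tested.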

How the results depend on the processing

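The Pdcd10 difference, CIA minus normal, was 1.24 to 2.20 under the 5 other scalings and background corrections, 1.38 with the median over spots, 2.04 with array weights and 1.16 to 1.87 when 1 array was left out. It was -0.60 with scan run as a block and -0.60 within scan run 1, because only normal replicate 1 then stands for the normal group. The median circRNA difference moved between scalings from -0.19 after normexp to 1.02 without scaling, and Pdcd10 exceeded that median by 1.18 to 1.52. Scan run 1 exceeded run 2 by 1.83 to 2.00 under the scalings, by 2.96 without scaling and by 1.82 to 2.11 with 1 array left out. Of the CIA arrays, 1 lay above normal replicate 1 in all of these, and 0 when CIA replicate 1 was left out. Mean percentiles were 78.2 to 82.5 in normal and 90.5 to 92.1 in CIA tissue with 1 array left out. The replicate block gave a Pdcd10 difference of 1.38 (SE 0.33) and called 0 linear and 0 circRNA probes. No clear pairing of samples by number was seen, though low correlations cannot show that there was none. Deviations of same-numbered samples correlated at -0.09 to 0.18, over 0.1 in 1 of 5 pairs. Calls among all probes, 0 linear and 0 circRNA in the report, became 20 circRNA after quantile normalization, 2 linear when each kind of probe was fitted alone, and 36 linear and 7799 circRNA with array weights, which gave normal replicate 1 the lowest weight. With 1 array left out they were 0 to 25 linear and 0 to 4981 circRNA, the highest without normal replicate 1. The alternative with the deposited value table was not run, since that table does not list the probe.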
